A study of Daucus carota with 10 samples.

Results

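The glutathione S-transferase (GST) genes described here are 4 genes measured by RNA sequencing in the taproot of carrot (Daucus carota). They are GST1 (gene ID 108205254, GST F11), LOC108194096 (gene ID 108194096) and LOC108195220 (gene ID 108195220), both named GST U17-like by the study, and LOC108199307 (gene ID 108199307, GST U15-like). They were chosen by the study's calls of differential expression in 4 comparisons (E with F, G with H, E with G and F with H), GST1 as the one taken up as higher in purple tissue, and they are 4 of 36908 loci listed. Levels in the 8 libraries of those comparisons therefore chose the genes and are given as a description, with no test. The study names 4 more GST genes among its calls, and these are described beside the members.

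The data were 10 libraries, 2 for each of 5 groups, from taproots of plants 120 days old grown in a greenhouse. Group CT was the whole root slice of the orange carrot 'H13.360IND'. E was xylem and F phloem of one purple cultivar, and G was xylem and H phloem of another. By the study's methods the material of several roots of a cultivar was mixed, so a library is a pool of roots, and the 2 libraries of a group are biological replicates. The deposited sample labels and the study's text disagree on the dissected groups. The sample labels give E and F as 'Purple Haze' with E orange, and G and H as 'Purple 68' with both purple. The text gives E and F as 'Purple 68' with both tissues purple, and G as the orange xylem and H as the purple phloem of 'Purple Haze'. The groups are called by their letters throughout.

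The anthocyanin pathway transcripts taken up by the study go against the colours of the sample labels for E and G. The study took these genes up as higher in the tissues that its text calls purple, which include E and not G. Their order in E and G is therefore a description and no independent check of the labels. The share of all genes ordered in the same way was not computed. All 10 structural genes checked (LDOX1, DFR1, F3H1, F3'H1, CHI2, CHI1, CHS1, C4H1, PAL4 and 4CL3-1) had both E libraries above both G libraries, by 2.89 to 89.4 times in mean FPKM (fragments per kilobase of transcript, scaled to library size, a level per length). The tissue labels could be set against only 1 gene, LOC108225351, which the study names as similar to the phloem regulator APL. The function of LOC108225351 in carrot was not examined, and no library of E, F or H had more than 8 fragments of it. Its mean was 0.246 FPKM in H and 0.30 FPKM in F, the phloem groups, 0.0198 and 5.35 FPKM in the xylem groups E and G, and 1.48 FPKM in CT, so it was highest in a xylem group. The FPKM values were scaled to between 13909838 and 17118785 fragments per library, and 1 FPKM of a member corresponds to a known number of fragments, given below where it is small. The second E and the second H library had the fewest loci at 1 FPKM or more, 15219 and 15434. The other libraries had 16909 to 18450. In these bulk samples fewer cells of a type and less RNA per cell cannot be told apart.

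GSTs join the tripeptide glutathione to small molecules, and plants carry several classes of them, of which phi and tau are specific to plants. Some phi and tau enzymes also bind flavonoids. In Arabidopsis, petunia and maize, loss of one such GST leaves anthocyanins outside the vacuole, where they would otherwise collect after synthesis in the cytosol. The F in the name GST F11 stands for the phi class and the U in GST U15 and GST U17 for the tau class. GST1 was the gene that the study considered as a carrier of anthocyanin to the vacuole.

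GST1 was among the most abundant transcripts of the root in 3 of the groups and was scarce in the other 2. It lies on chromosome 1, minus strand, from 38597682 to 38598904 in the coordinates of the deposited files, whose build is not given in the sources used here. In CT it was at 4.07 and 3.66 FPKM, from 57 and 63 fragments. In E it was at 2146 and 2339 FPKM and in F at 3268 and 3969 FPKM. Both F libraries stood above both E libraries. In G it was at 38.3 and 23.5 FPKM, from 583 and 376 fragments, and in H at 1525 and 2240.5 FPKM. The E and H libraries overlapped, and every other pair of groups that were neighbours in the order F, E, H, G, CT did not. The means were 3618 ± 496 FPKM in F, 2243 ± 137 in E, 1883 ± 506 in H, 30.9 ± 10.4 in G and 3.87 ± 0.294 in CT (SD, n = 2). The F mean was 1.61 times that of E, the H mean 61.0 times that of G, the E mean 72.6 times that of G and the F mean 1.92 times that of H. Ranked by FPKM among all 36908 loci, GST1 took places 9 to 26 in the libraries of E, F and H, places 3588 and 5386 in G, and places 13905 and 14403 in CT. From the lowest library to the highest it spanned 1085-fold.

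**Figure D1:**
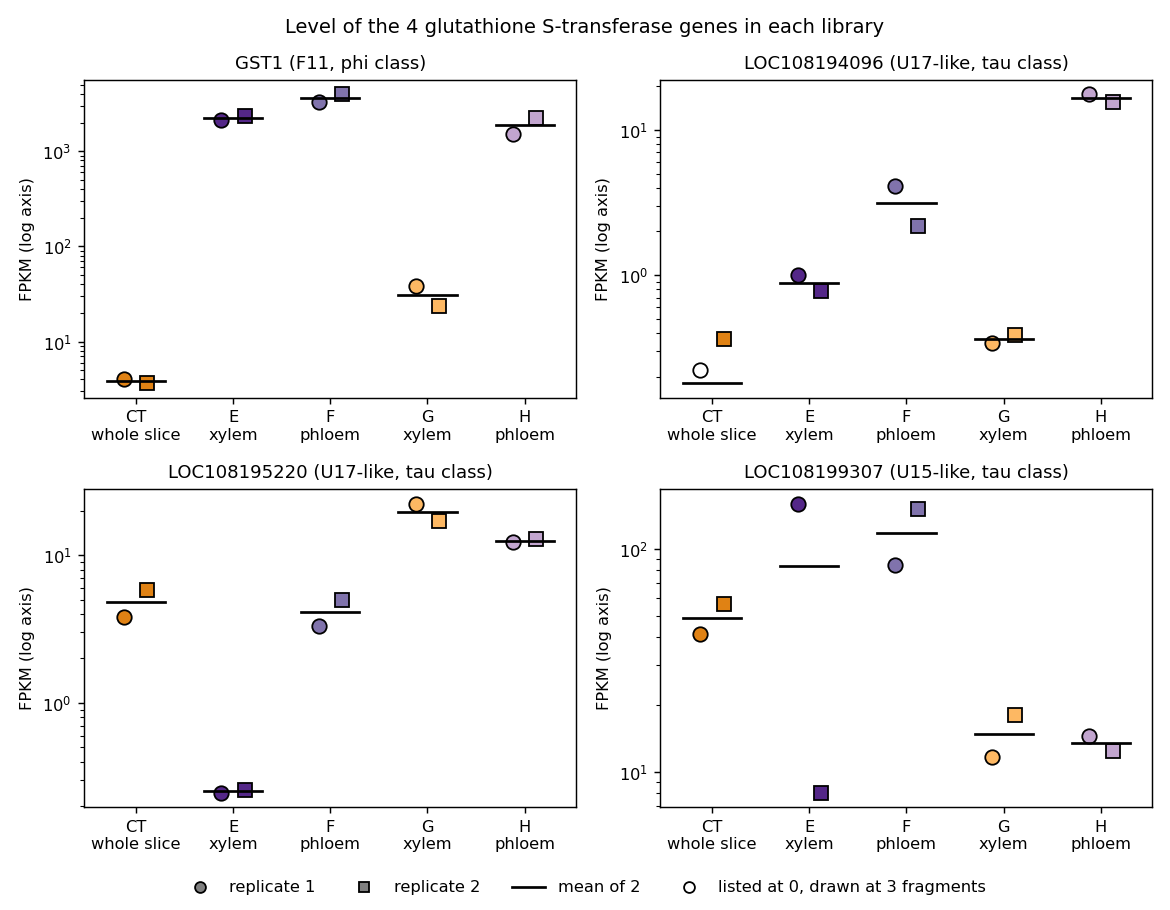
FPKM (log axis) of the 4 members in each of the 10 libraries, by group, with 1 point per library, a line at the group mean and a library listed at 0 drawn open at the level of 3 fragments. GST1 spans from 3.66 to 3969 FPKM, while LOC108199307 has its 2 E libraries at 159 and 8.07 FPKM.

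LOC108194096, a tau class GST, was low outside H. It lies on chromosome 7, minus strand, from 15085516 to 15086683. It was at 17.6 and 15.7 FPKM in H and at 4.14 and 2.19 FPKM in F. Both phloem groups thus held it above the other 3 groups. In E it was at 0.997 and 0.777 FPKM, from 16 and 12 fragments, and in G at 0.340 and 0.389 FPKM, from 5 and 6 fragments. In CT 1 library had no fragment, where 3 fragments would be 0.222 FPKM, and the other had 0.361 FPKM from 6 fragments. In the order H, F, E, G, CT the neighbours G and CT overlapped and the others did not. The mean in H (16.6 ± 1.41 FPKM, SD, n = 2) was 5.26 times that in F and 45.7 times that in G, and the mean in F was 3.57 times that in E.

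LOC108195220, the other U17-like gene, was highest in G, where GST1 was low. It lies on chromosome 7, minus strand, from 15057680 to 15059202. It was at 22.4 and 16.9 FPKM in G and at 12.2 and 12.9 FPKM in H. The CT libraries were at 3.81 and 5.78 FPKM and the F libraries at 3.29 and 5.01 FPKM, and these groups overlapped. In E it was nearly undetected, at 0.247 and 0.256 FPKM from 4 fragments in each library. In the order G, H, CT, F, E only CT and F overlapped. The G mean (19.7 ± 3.83 FPKM, SD, n = 2) was 78.1 times the E mean and 1.57 times the H mean, and the F mean was 16.5 times the E mean. The phloem group was thus the higher in E and F and the lower in G and H.

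LOC108199307, the U15-like gene, was the most abundant of the members in CT. It lies on chromosome 8, minus strand, from 30574471 to 30576100. It was at 41.5 and 56.7 FPKM in CT and at 84.5 and 151 FPKM in F. In G it was at 11.6 and 17.9 FPKM and in H at 14.5 and 12.4 FPKM, both below CT and overlapping each other. The E libraries stood far apart, at 159 FPKM (3279 fragments) and 8.07 FPKM (160 fragments), and so spanned every other group. On log2(FPKM + 1) they differed by 4.14, and of the 20824 genes whose mean reached 1 FPKM in some group 0.0768% differed by more between the E libraries. The SD of that difference over all these genes was 0.84 in E, 0.80 in H, 0.65 in F, 0.63 in G and 0.43 in CT. The E mean of 83.6 ± 107 FPKM (SD, n = 2) therefore describes neither library.

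The 4 genes did not share one pattern over the libraries. Over the 10 libraries, Pearson's r of log2(FPKM + 1) with GST1 was 0.645 for LOC108194096, 0.133 for LOC108199307 and −0.356 for LOC108195220. Between the U17-like genes it was 0.244. These are descriptions over libraries that fall into 5 groups, and the libraries of a group are not independent points.

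CT was in none of the 4 comparisons that chose the genes, so each dissected group was tested against it. The libraries of E, F, G and H did take part in that choice, so the p-values below are not independent of it. This holds for GST1 too, which was taken up as higher in purple tissue. The 4 comparisons below share the CT libraries. CT is another cultivar and a whole slice, so cultivar, colour and tissue cannot be told apart in them. Each gene whose mean reached 1 FPKM on one side was tested by limma on log2(FPKM + 1), 2-sided, with Benjamini-Hochberg adjustment over the whole table. A gene was called where the adjusted p was under 0.05 and the log2 fold change had a size of 1 or more. The fold changes are on that scale and understate those of low genes. The tested genes as a whole had a median log2 fold change of −0.49 for E, −0.46 for H, −0.41 for F and −0.23 for G. Quantile normalization brought these medians to −0.05, −0.10, −0.10 and −0.06. With a library left out, an arm holds 1 library, and many of these fits called nothing. No gene of the whole table was called by limma in E or F without either CT library, in G without any 1 of its 4 libraries, or in H without the second CT library, though 2934 to 8671 genes were under an unadjusted p of 0.05 in them, and 9 were called in H without the first. A call lost there says nothing of a single gene, and the fold changes are given for those fits instead.

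GST1 rose against CT in all 4 groups. Its log2 fold change was 9.53 (SE 0.18, limma adjusted p = 0.000666) in F, 8.85 (SE 0.20, limma adjusted p = 0.0024) in E and 8.57 (SE 0.27, limma adjusted p = 0.000797) in H. In G the rise was smaller, at 2.67 (SE 0.29, limma adjusted p = 0.0136), with a G mean 7.99 times the CT mean. The G rise was therefore called at a level of GST1 far below that of E, F and H. With either CT library left out, the values were 8.79 and 8.91 in E (limma adjusted p = 0.0596 and 0.0503) and 9.47 and 9.60 in F (limma adjusted p = 0.0812 and 0.0912), in fits that called no gene. The G value without any 1 of its 4 libraries lay between 2.33 and 3.01 (limma adjusted p from 0.0503 to 0.126), and the H value without the second CT library was 8.51 (limma adjusted p = 0.0521).

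LOC108194096 was near its floor in CT and entered the test only through H and F, the groups where it was high and whose libraries helped to choose it, so its test is no support and its fold changes are given as a description. They were 3.92 (SE 0.40) in H and 1.80 (SE 0.34) in F on log2(FPKM + 1). The size depends on the scale, at 6.28 and 3.86 with a pseudocount of 0.1 and 7.07 and 4.56 by voom on recovered fragments. In E and G the gene was under the filter on low values and was not tested. Without the first or the second CT library the values were 3.69 and 4.14 in H and 1.57 and 2.02 in F.

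LOC108195220 rose in G, a xylem group, with a log2 fold change against CT of 1.84 (SE 0.29, limma adjusted p = 0.0232). In E, the other xylem group, it was −2.19 (SE 0.32), where the gene passed the filter only through CT and the value is a description. That size also depends on the scale, at −4.08 by voom, −3.77 with a pseudocount of 0.1 and −1.43 with quantile normalization. In F it was −0.17 (95% interval −0.95 to 0.61, limma adjusted p = 0.671), and its sign turned with quantile normalization, at 0.33. In H it was 1.24 (SE 0.39, limma adjusted p = 0.0902), and it was called there with quantile normalization, at 1.75 (limma adjusted p = 0.0343), or with 1 fit of all 10 libraries (limma adjusted p = 0.0392). Without the first or the second CT library the E value was −2.44 and −1.94, and without any 1 of its 4 libraries the G value lay between 1.59 and 2.09 (limma adjusted p from 0.0527 to 0.178).

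LOC108199307 fell in G and H and rose in F. Its log2 fold change against CT was −1.68 (SE 0.28, limma adjusted p = 0.0251) in G, −1.78 (SE 0.29, limma adjusted p = 0.0300) in H and 1.20 (SE 0.34, limma adjusted p = 0.0445) in F. In E it was −0.38 (95% interval −3.89 to 3.13, limma adjusted p = 0.850). Without the first E library that value was −2.45 (limma adjusted p = 0.0173, in a fit that called 42% of all genes) and without the second it was 1.69 (limma adjusted p = 0.052), so 1 library set its direction. All 3 calls were lost in 1 fit of all 10 libraries (limma adjusted p = 0.378 in G, 0.247 in H and 0.431 in F), where the spread between the E libraries enters the shared error. Without the first or the second CT library the values were −1.90 and −1.46 in G, −2.00 and −1.56 in H and 0.98 and 1.42 in F, and without the first or the second G library −1.39 and −1.98 in G, all in fits that called 9 genes or none. Without the second H library the H value was −1.68 (limma adjusted p = 0.0635), where 3.8% of all genes were called, and without the second F library the F value was 0.79 (limma adjusted p = 0.104), where 29.2% were called.

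Read against all genes, calls were most frequent in F. In F, 3 of the 4 members were called (GST1, LOC108194096 and LOC108199307 higher), while 29.4% of the 19712 genes tested were called, 7.77% higher in F and 21.6% higher in CT. In E, 2 of the 3 members tested were called, GST1 higher and LOC108195220 lower, while 15.2% of 19400 genes were called, 3.54% higher in E and 11.6% higher in CT. In G, 3 of the 3 members tested were called, GST1 and LOC108195220 higher and LOC108199307 lower, while 13.3% of 19456 genes were called, 5.36% higher in G and 7.96% higher in CT. In H, 3 of the 4 members were called, GST1 and LOC108194096 higher and LOC108199307 lower, while 10.2% of 19496 genes were called, 3.85% higher in H and 6.31% higher in CT. These counts hold the calls of LOC108194096 in F and H and of LOC108195220 in E, which entered the test only through the group where the gene was high, and the members had been picked as genes that vary, so these shares describe the members and are no support for them as a group.

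**Figure D2:**
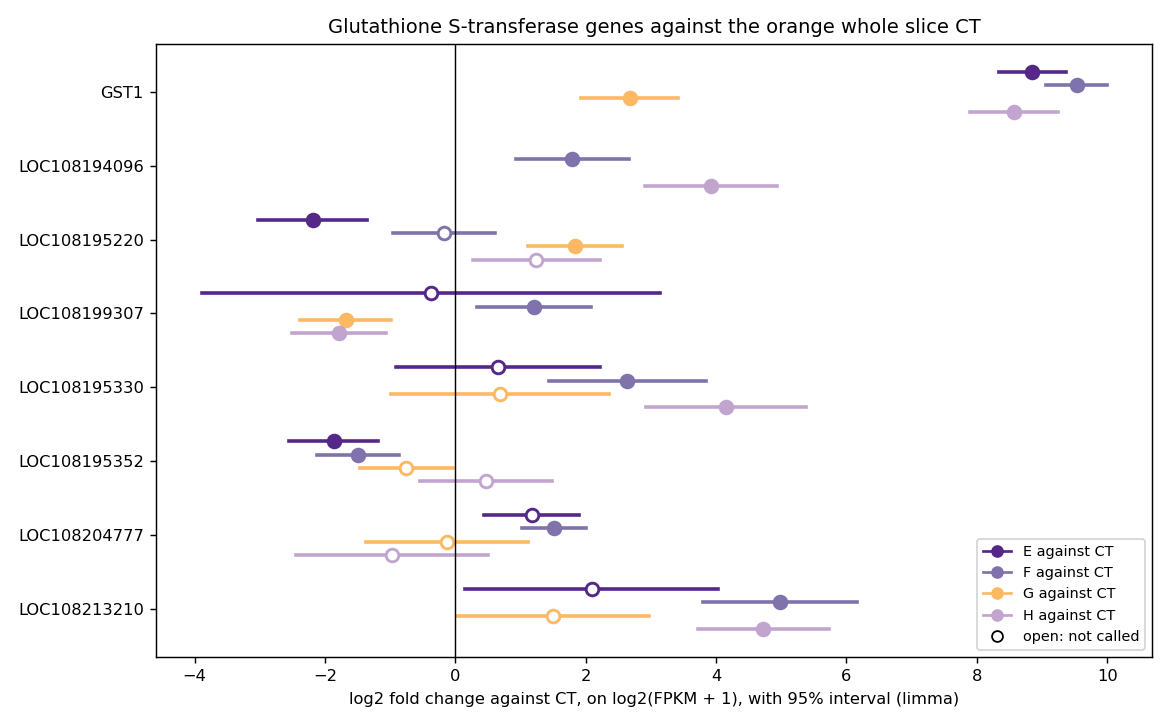
Log2 fold change against CT on log2(FPKM + 1) for the members and the other GST genes the study names, with bars for the 95% interval, 1 colour per group and filled points for genes called. GST1 stands at 8.57 to 9.53 in E, F and H and at 2.67 in G, and the interval of LOC108199307 in E runs from −3.89 to 3.13.

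The other 4 GST genes that the study names were LOC108195330, LOC108195352, LOC108204777 and LOC108213210, chosen by the same calls. With the members they make a list of 8. Against CT, 6 of the 8 were called higher and 1 lower in F, beside 7.77% and 21.6% of all genes tested. In H, 4 of the 8 were called higher and 1 lower, beside 3.85% and 6.31%. In E, 1 of 7 tested was called higher and 2 lower, beside 3.54% and 11.6%, and in G 2 of 7 were called higher and 1 lower, beside 5.36% and 7.96%. The median log2 fold change of those tested was 1.65 in F, where that of all genes was −0.41, 2.58 in H (all genes −0.46), 0.66 in E (all genes −0.49) and 0.69 in G (all genes −0.23). The list was picked as genes that vary, and some of its genes passed the filter only through the group where they were high, so these counts are a description. LOC108213210 was at 0 and 0.20 FPKM in CT, 21.5 and 52.0 in F and 31.5 and 24.9 in H, and it passed the filter only through the latter groups. LOC108204777 rose by 1.51 in F (limma adjusted p = 0.0097), and its value in E was 1.17 (limma adjusted p = 0.056). LOC108195352 had the lowest fold change called in F, −1.49, and stood at −1.87 in E, in both passing the filter only through CT. GST1 had the largest called rise of the list in all 4 groups, and the largest called fall was that of LOC108195220 in E and of LOC108199307 in G and H. In level per length GST1 was first of the 8 in E, F, G and H, whereas LOC108199307 was first in CT at a mean of 49.1 FPKM, followed by LOC108204777 at 7.89 FPKM and LOC108195220 at 4.80 FPKM. After GST1 came LOC108199307 and LOC108204777 in E by the means, with the second E library in the opposite order (8.07 and 17.9 FPKM), LOC108199307 and LOC108213210 in F, LOC108195220 and LOC108199307 in G, and LOC108195330 (69.8 FPKM) and LOC108213210 (28.2 FPKM) in H.

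The U17-like members lie in one stretch of chromosome 7 with another GST of the list. From the start of LOC108195220 to the end of LOC108194096 are 29004 bases, which hold 7 annotated genes, all 7 on the minus strand. In the RefSeq gene table of assembly DH1 v3.0, 6 of the 7 were found on chromosome 7 in the same order. LOC108195330 lies between the members, 9960 bases from LOC108194096. It was at 59.5 and 80.1 FPKM in H, at 20.1 and 27.8 FPKM in F and at 9.98 FPKM or less in the other 6 libraries. It was thus highest in H and next in F, as LOC108194096 was, and Pearson's r between them was 0.925 over the 10 libraries. LOC108195330 rose against CT by 4.15 in H (limma adjusted p = 0.0206) and by 2.64 in F (limma adjusted p = 0.0162). The H and F libraries took part in the choice of this gene, so these p-values are not independent of it. LOC108195220, at the other end of the stretch and 26313 bases from LOC108194096, was highest in G. The most abundant gene of the stretch was LOC108195222, at 113 to 338 FPKM, with its highest mean in CT. LOC108195464 did not exceed 0.0882 FPKM in any library. How reads shared between similar GST copies were counted was not examined, so levels of neighbouring copies carry that uncertainty.

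**Figure D3:**
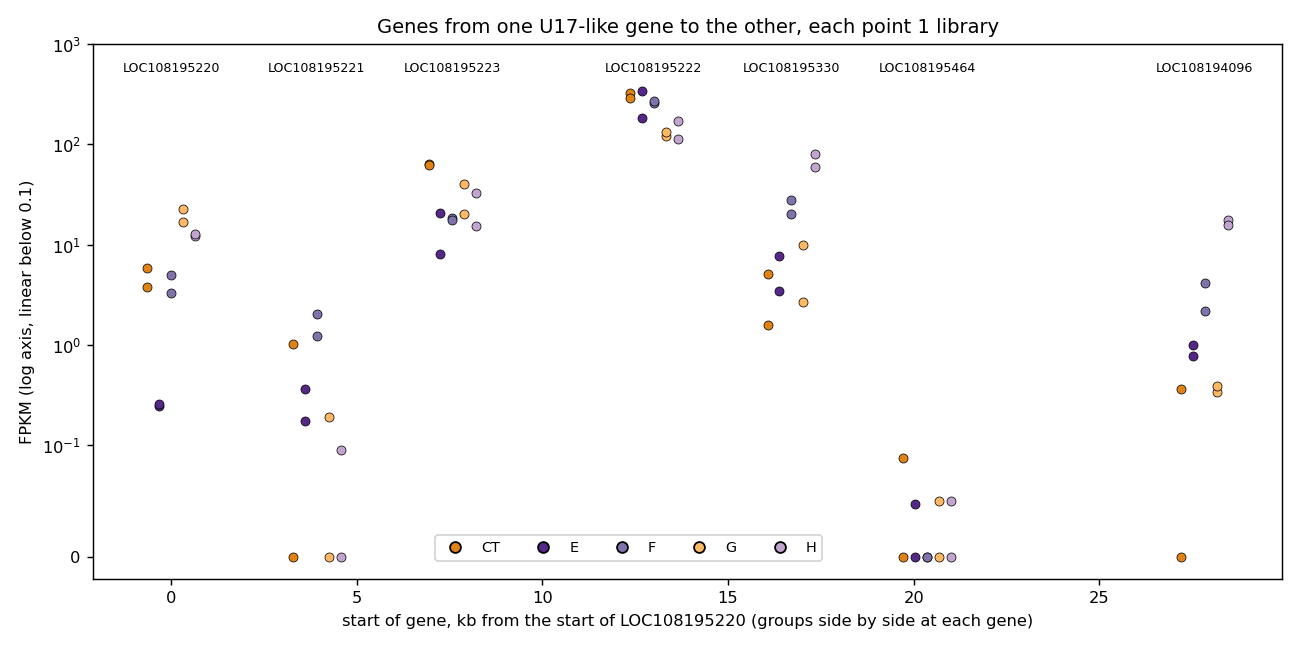
FPKM (log axis) of the 7 genes between LOC108195220 and LOC108194096 on chromosome 7 against distance along the stretch, with 1 point per library, groups side by side at each gene and the axis linear below 0.1 FPKM. LOC108195330 and LOC108194096 are highest in H, and LOC108195220 is highest in G.

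The genes beside GST1 did not follow its levels. LOC108205255, 145 bases before it and on the other strand, lay between 3.11 and 12.4 FPKM in all 10 libraries. LOC108205253, 815 bases after it and also on the other strand, did not exceed 0.184 FPKM.

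The genes whose levels were most like those of GST1 included structural genes of the anthocyanin pathway and none of the other members. Among 20823 genes, the 10 with the highest Pearson's r to GST1 over the 10 libraries included CHS1 (chalcone synthase, the first enzyme of the flavonoid branch, r = 0.997), F3'H1 (flavonoid 3'-hydroxylase, r = 0.997), F3H1 (flavanone 3-hydroxylase, r = 0.996), CHI1 (chalcone isomerase, r = 0.995) and DFR1 (dihydroflavonol reductase, r = 0.993). The other 5 were LOC108227883 (r = 0.996), LOC108225223 (r = 0.994), LOC108205905 (r = 0.994), LOC108227809 (r = 0.993) and LOC108200979 (r = 0.992). The study matches LOC108225223 to the Arabidopsis gene of ferulate 5-hydroxylase and LOC108227809 to that of a cinnamoyl-CoA reductase, both enzymes of phenylpropanoid metabolism. GST1 and these genes were seen in the same libraries, which separate into E, F and H on one side and G and CT on the other, and every r given here holds that contrast. By Spearman's correlation 1 of the 10 remained, and over the 5 group means 5 remained.

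The ratio of GST1 to CHS1 moved little while both spanned about the same range. In FPKM the ratio lay between 0.244 and 0.485 in all 10 libraries, a spread of 1.99-fold, while CHS1 itself spanned 1059-fold. The spread of the ratio was 2.42-fold for F3H1, 2.79-fold for CHI1, 3.63-fold for DFR1, 4.98-fold for CHI2 and 5.42-fold for F3'H1. It was 11.04-fold for LDOX1 (anthocyanidin synthase, the step before the coloured pigment), and 7.21-fold without the second G library. For the early phenylpropanoid genes, whose products also feed lignin, it was 89.6-fold for PAL4 (phenylalanine ammonia-lyase), 99.1-fold for C4H1 (cinnamate 4-hydroxylase) and 253.6-fold for 4CL3-1 (4-coumarate:CoA ligase). These widths rest on CT: without the second CT library they were 27.2-fold, 54.5-fold and 125-fold, and without both CT libraries 7.52-fold, 18.0-fold and 46.7-fold, so that PAL4 then lay below LDOX1. The spread for CHS1 was 1.99-fold without CT as well. These are descriptions of genes chosen from the same calls. Set in order of FPKM with the 10 structural genes, GST1 took place 2 in F and H, below CHS1, place 3 in E, below CHS1 and F3H1, and place 5 in G and CT.

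**Figure D4:**
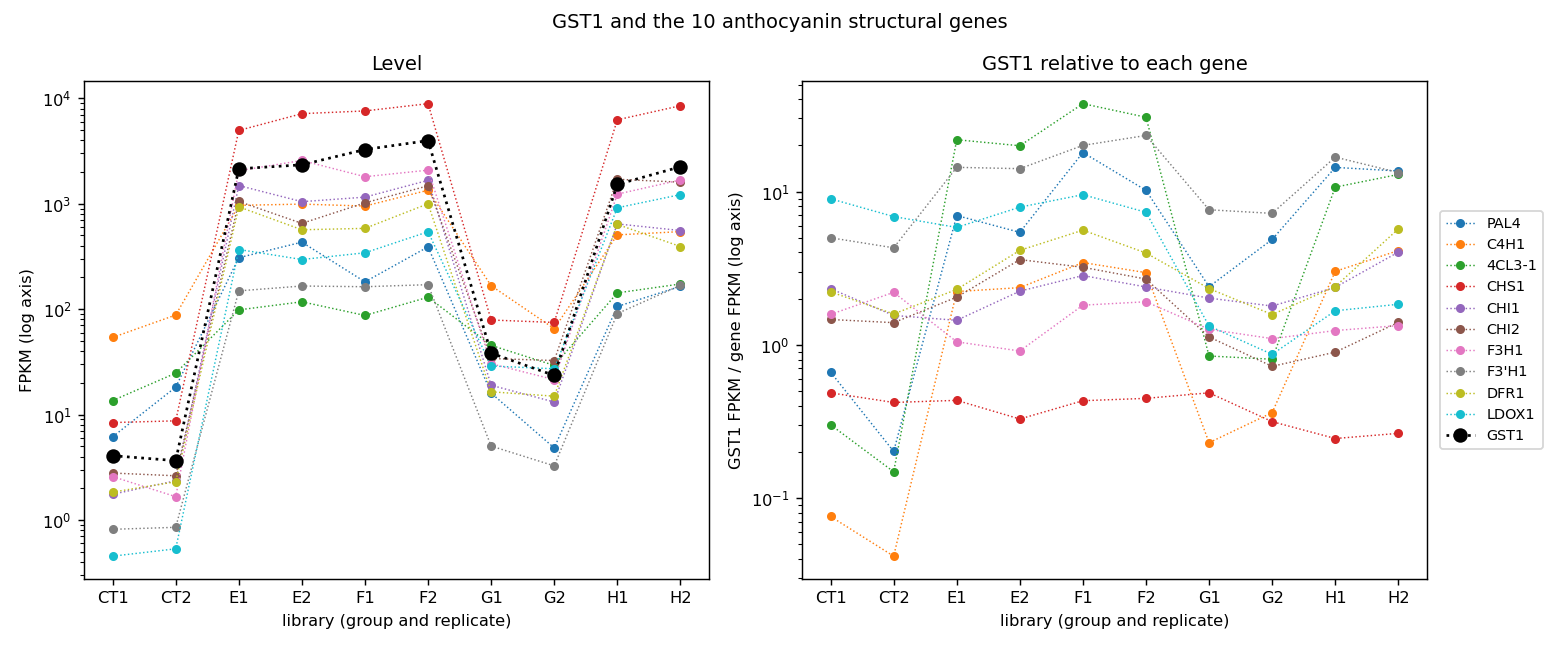
Left, FPKM (log axis) of GST1 (black) and 10 structural genes in each library; right, GST1 FPKM divided by that of each gene (log axis), with dotted lines that join points of a gene only to guide the eye. The ratio to CHS1 stays between 0.244 and 0.485, while that to 4CL3-1 spreads 253.6-fold.

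The low levels in G and CT were not the same. GST1 was higher in both G libraries than in both CT libraries, and 8 of the 10 structural genes were as well, the exceptions being PAL4 and C4H1. The share of all genes ordered in this way was not computed, so this count is only a description. Other genes of the pathway were farther from GST1 in the order of likeness. The acyltransferase SCPL1 was in place 14 and LDOX1 in place 34, and among regulators bHLH3 was in place 30 (r = 0.961), the MYB gene DcMYB7 in place 887 (r = 0.695) and DcMYB6 in place 2046. LOC108194096 came in place 1200, LOC108199307 in place 5317 and LOC108195220 in place 10482 of the 20823 genes.

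The genes most like the other members were no structural genes of the pathway. For LOC108194096 they were LOC108198838 (r = 0.978), LOC108222430 (r = 0.970) and LOC108211738 (r = 0.960), of which the study matches LOC108211738 to an Arabidopsis cytochrome P450 of the CYP81D group. LOC108198838 and LOC108222430 were low, with highest means of 1.05 and 4.57 FPKM, both in H. For LOC108195220 they were LOC108220554 (r = 0.967), LOC108220371 (r = 0.965) and LOC108220908 (r = 0.963). For LOC108199307 they were LOC108216367 (r = 0.963), LOC108207200 (r = 0.935) and LOC108222751 (r = 0.927). LOC108216367 and LOC108207200 were low in every group, with highest means of 1.28 and 1.40 FPKM, both in F. LOC108222751 was at a mean of 83.0 FPKM in CT and 62.0 FPKM in H, so its fold between groups was smaller than that of LOC108199307.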

How the data were processed

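The deposited files, 1 per library, hold FPKM for each gene, computed by the authors, and the submitters' processing notes name TopHat2 2.0.12, Bowtie2 2.2.3, HTSeq 0.6.1 and DESeq 1.18.0. The genome build is not given in the sources used here, nor is strand-specific counting. Each FPKM multiplied by gene length gave steps of 1 fragment, from which scaling totals and fragment numbers were recovered, and 73.9% to 74.8% of the loci detected in a library came out whole within 0.02.

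The members and lists were chosen with earlier results of these data known. Each of E, F, G and H was compared with CT by limma 3.58.1 with trend in R 4.3.3 on log2(FPKM + 1), 2 libraries against 2, for genes whose mean reached 1 FPKM on one side. Tables and figures were made in Python 3.11.15 with pandas 2.3.3, numpy 2.4.6 and matplotlib 3.10.9. Scripts were tested on simulated data. Alternatives were no filter, a pseudocount of 0.1, 1 fit of all libraries, voom on recovered fragments, quantile normalization, the replicate number as a block, and leaving out each library. With 2 libraries per group an exact test cannot pass the threshold and none was run.

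A list of all GST genes by product name could not be made from the gene table used, which holds symbols only, so the list is the 8 genes the study names. Counts of that list in the 4 comparisons that chose it were not run. The text names the members, the other 4 listed genes, the 10 genes most like GST1 and the 3 most like each other member by Pearson's r, the 3 listed genes highest in each group, and those of largest called rise and fall. All 11 GST IDs used were found in the RefSeq gene table (DH1 v3.0), which gave the chromosome numbers through IDs shared with the files (98.2% to 99.3% of those on a sequence fell on one chromosome). Sequences were not used here.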

Additional observations from a re-analysis of the deposited data

Results flagged for a closer look

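Results are given here where a group pair went opposite ways under the same contrast, with both libraries of each group on one side. LOC108194096 was higher in E than in G by 0.47 on log2(FPKM + 1) and lower in F than in H, with a difference F minus H of −2.12, and the E and G values rest on 5 to 16 fragments per library. LOC108195220 was lower in xylem than in phloem in E and F (E minus F, −2.02) and higher in xylem in G and H (G minus H, 0.60). Neither difference between the contrasts was tested, since these comparisons chose the genes.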

How the results depend on the processing

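Against CT, GST1 kept its direction in every alternative run, with log2 fold changes of 9.39 to 9.86 in F, 8.79 to 9.17 in E, 8.29 to 8.90 in H and 2.33 to 3.01 in G. It was called in all of them except where a library was left out, when the lone library left in an arm is assumed to vary like the other group; without 1 library it ran from 8.79 to 8.91 in E, 9.39 to 9.67 in F, 2.33 to 3.01 in G and 8.29 to 8.85 in H. Of the 8 listed GST genes, 7 were called in F, 5 in H, 3 in E and 3 in G. Beside these stood 29.4%, 10.2%, 15.2% and 13.3% of all genes tested. Leaving out 1 library gave 0 to 6 calls in each of E, F and H and 0 to 0 in G. Over all genes the same fits called 0% to 42% in E, 0% to 29.2% in F, 0% to 44.6% in H and none in G, so the counts of the list moved with the whole table. Quantile normalization gave 5 calls in E, where 12.7% of all genes tested were called. A list of 11 genes was chosen after seeing the data, by adding 3 that the study matches to Arabidopsis GSTs. It gave 9 in F, 6 in E, 6 in H and 4 in G, beside 29.4%, 15.2%, 10.2% and 13.3% of all genes tested. Some of these calls passed the filter only through the group where the gene was high, as LOC108219618 did through CT in E and F. These counts are a description. LOC108199307 in E ran from −2.45 without the first E library to 1.69 without the second. LOC108195220 in F turned to 0.33 with quantile normalization, and without 1 library it ran from −0.42 to 0.0775, positive without the first F library (0.0726) or the second CT library. The cause was not tested. The call of LOC108199307 in F was also lost with no filter on low values (limma adjusted p = 0.067) and with quantile normalization (0.0502). Of the 10 genes most like GST1, 1 remained with Spearman's correlation and 5 with the 5 group means. Replicate numbers are shared between groups but no source says that they pair libraries, and the deviations of same-numbered libraries correlated between −0.0764 and 0.0086 for CT with the other groups. Among E, F, G and H the correlation ran from −0.56 (G with H) and −0.41 (E with G) to 0.59 (E with H). A fit with a replicate block called 7 of the 8 in F, 5 in H, 4 in E and 3 in G. Over all genes tested, that fit called 29.3% in F, 23.9% in H, 19.6% in E and 15.2% in G. A floor of 3 fragments (0.141 to 0.222 FPKM for the members) was set here, and levels listed under it rest on too few fragments to be read.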

Other observations

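The 3 GST genes that the study matches to Arabidopsis GSTs without naming them add other patterns. They were taken up after the data were seen, so the p-values given for them are not independent of that choice. LOC108211468, matched to a tau class gene, was at 4.42 and 8.58 FPKM in CT, at 77.4 and 273.8 in F and at 65.5 and 68.1 in H. It rose against CT by 4.35 in F (limma adjusted p = 0.0124), by 3.23 in H (limma adjusted p = 0.0190) and by 2.74 in E (limma adjusted p = 0.0419), while its value in G was 0.60 (limma adjusted p = 0.577). Its Pearson's r with GST1 was 0.890 over the 10 libraries, in place 123 of 20823. It lies 8525 bases from LOC108213210 on chromosome 3 with 2 genes between them, and r between them was 0.923. LOC108199312 had means of 37.9 FPKM in H, 20.8 in CT, 13.3 in F, 7.51 in G and 4.14 in E. Against CT it fell by −2.12 in E (limma adjusted p = 0.0387) and −1.35 in G (limma adjusted p = 0.0402). In F its value was −0.67 (limma adjusted p = 0.227) and in H 0.86 (limma adjusted p = 0.103). Its Pearson's r with GST1 was −0.085. LOC108219618, matched to GST U17, had no fragment in the 4 libraries of E and F, where 3 fragments would be 0.229 to 0.249 FPKM, against 1.26 and 1.82 FPKM in CT. It was at 1.61 and 3.92 FPKM in G and highest in H, at 7.60 and 5.46 FPKM. Its recovered fragments were not whole numbers, off by 0.40 in the second H library, so that floor is approximate. In E and F the gene passed the filter only through CT, so no test is given for them. Its log2 fold change against CT was 1.56 in H (limma adjusted p = 0.0655) and 0.50 in G (limma adjusted p = 0.382).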
